A study of Homo sapiens with 6 samples.

Results

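Genes of the nuclear pore and of nuclear transport were examined in a human breast cancer line, MDA-MB-231, grown on fructose or on glucose. MDA-MB-231 is a long-established triple-negative line, which lacks the oestrogen and progesterone receptors and HER2 amplification. The set was a list of 42 gene symbols covering the pore's rings, channel, membrane anchors, cytoplasmic face and basket, the importins and exportins, and Ran with its activator. A gene was represented by the probe set with that 1 symbol in the array's annotation that had the highest mean log2 value over the 6 arrays, which gave a value for 39 of the 42 among 18404 measured genes. Levels, not differences between the sugars, therefore chose the probe sets, and those levels are given as a description. AHCTF1, NUP62 and POM121 were represented only on probe sets shared with other genes and have no value of their own here. The fructose group comprised 3 arrays of cells kept in DMEM with 10 mM fructose, and the glucose group 3 arrays of cells kept in DMEM with 25 mM glucose. Both groups grew in their sugar for 25 days, each array held total RNA from a batch of cells adapted on its own, and no gene was altered in either group. Sugar, its concentration and the lack of glucose changed together and cannot be told apart, and the cells are of 1 cancer line. In RNA of whole cultures, fewer cells with a transcript and less of it per cell cannot be told apart either.

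The nuclear pore is the channel through which RNA and protein pass between nucleus and cytoplasm. Its scaffold is built of outer rings, made of Y-shaped complexes, and an inner ring; membrane proteins anchor it, and nucleoporins rich in phenylalanine-glycine (FG) repeats fill the channel and form the permeability barrier. Large cargo crosses with importins and exportins, which bind FG repeats, while the small GTPase Ran, loaded with GTP in the nucleus and made to hydrolyse it in the cytoplasm, sets the direction of travel.

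Marker genes were read before the pore genes. The mesenchymal markers VIM, CD44, AXL, CAV1 and MSN had mean log2 intensities of 10.6 to 11.5 in fructose, whereas CDH1, PGR and ESR1, which define luminal cells, had means of 3.04, 2.68 and 3.95, below the median tested probe set at 5.01. FOXA1 (4.56) was below it too, and GATA3 (6.22), EPCAM (7.47) and KRT18 (8.44) were above. EPCAM had a mean of 7.47 in fructose and 7.94 in glucose, a difference of -0.47 without overlap (limma adjusted p = 0.17), and the part of such a change in the values below was not tested. The leukocyte and fibroblast markers PTPRC, CD3E, CD79A, DCN, LUM and PDGFRB were below the median probe set in both sugars, COL1A1 was slightly above it (5.41 in fructose and 5.56 in glucose) and CD68, also made by other cells, was bright (10.8 in fructose and 10.6 in glucose). TXNIP, a glucose-responsive gene, differed by -3.80 (log2, fructose minus glucose; limma adjusted p = 4.70e-05) and was the only probe set of 28230 to pass an adjusted p of 0.05.

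Most nuclear pore genes were slightly lower in fructose, and none passed the test over the whole table. Of the 39 measured genes 31 were lower and 8 higher, with a median log2 difference of -0.08 (range -0.36 to 0.24), where 43.5% of all measured genes were lower and the median was 0.02. The limma test, adjusted over all 28230 probe sets, called 0 of the 39 members, against 0.00354% of all probe sets, and the smallest adjusted p among the members was 0.15. At an unadjusted p under 0.05, 12 members were lower and 1 was higher, where 5.74% of all genes were lower and 8.53% were higher by the same measure. On 17 members every fructose array lay below every glucose array, which is 43.6% of those measured against 10.0% of all genes. On 1 member, SEC13, every fructose array lay above, where the share of all genes was 13.0%. RAN counts among the 17 by the brighter of its 2 probe sets, and on its other probe set the sugars overlapped.

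The level of the genes bears on this background. The list is made up of brightly measured genes: 38 of the 39 were above the median probe set and 30 had a mean log2 of at least 8. Among all 3190 genes of that brightness the median difference was -0.01, 23.6% had every fructose array below every glucose array and 16.5% had every one above. Of the 30 bright members 15 were of the first kind and 1 of the second, and their median difference was -0.10. At an unadjusted limma p under 0.05, 338 of the 3190 bright genes were lower and 283 higher. By that measure 10 of the 30 bright members were lower and 1 was higher.

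**Figure D1:**
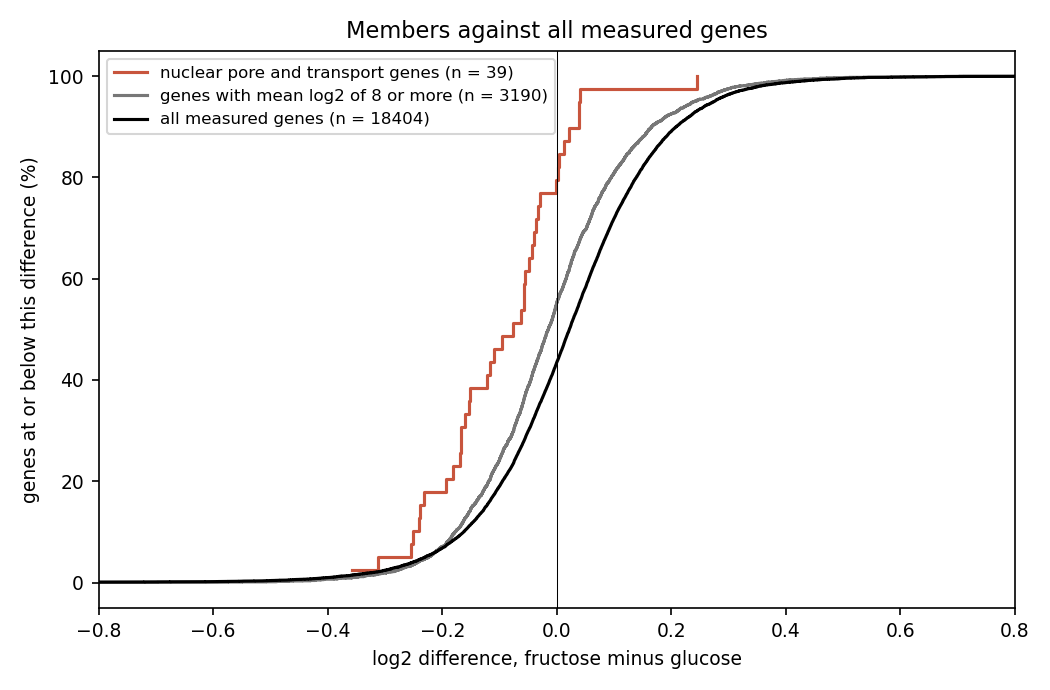
Cumulative share (y axis, %) of genes at or below each log2 difference between fructose and glucose (x axis), for the 39 nuclear pore and transport genes, the 3190 genes with a mean log2 of at least 8 and all 18404 measured genes. The curve of the members lies left of both others over most of its length, with 79.5% of the members below 0 against 55.2% of the bright genes and 43.5% of all genes.

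The outcome of the test depended on how the variance was modelled. With a variance that followed intensity and was estimated robustly, limma called 473 probe sets (1.68% of those tested), and 6 members were among them, 5 lower and 1 higher. These were NUP54 (adjusted p = 0.019), XPO1 (0.033), RANBP2 (0.039), NUP205 (0.044) and NUP155 (0.047) on the lower side and SEC13 (0.046) on the higher. When dim probe sets, those with a mean log2 at or below the median of 5.01, were left out before the fit, 325 of the 14115 remaining (2.30%) were called. NUP54 was the 1 member called of 38 tested, with a limma adjusted p of 0.036. The differences themselves were the same in these fits, and the statements below use the fit over all probe sets, in which no member passed.

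**Figure D2:**
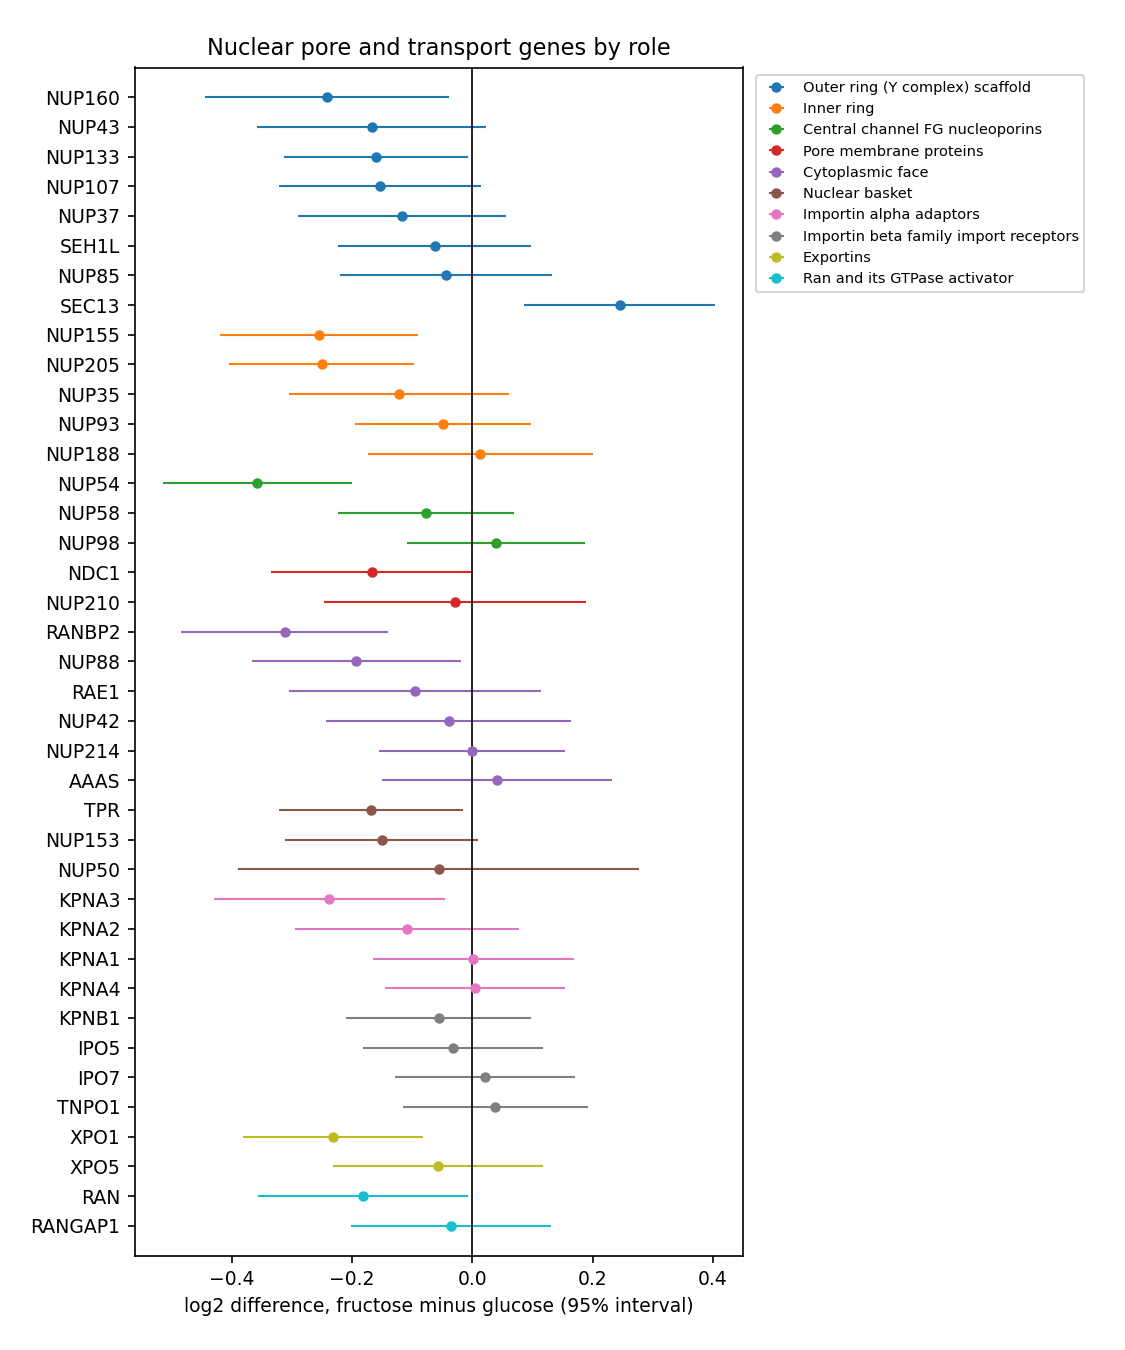
Log2 difference between fructose and glucose (x axis, fructose minus glucose) for each of the 39 measured genes (y axis), coloured by role, with bars for the 95% interval of the limma fit (3 arrays per sugar). NUP54 lies lowest at -0.36 and SEC13 highest at 0.24, and the bars of 13 genes do not reach 0.

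Promoter sequences are shown for the 3 lower genes with the smallest p and for SEC13, the only member that was higher without overlap. Each window runs from 250 bases before to 50 bases after the start of the gene in RefSeq (GRCh38.p14), in the direction of transcription, and capitals mark matches on either strand to the letters of common promoter motifs: ETS (CCGGAA), the CCAAT box (CCAAT), the GC box (GGGCGG), the E box (CACGTG), the NRF1 core (TGCGCA), the YY1 core (AAGATGG), E2F (TTTGGCG or TTCCCGC) and the CHR element (TTTGAA).
NUP54 promoter (chr4:76148348-76148647, - strand): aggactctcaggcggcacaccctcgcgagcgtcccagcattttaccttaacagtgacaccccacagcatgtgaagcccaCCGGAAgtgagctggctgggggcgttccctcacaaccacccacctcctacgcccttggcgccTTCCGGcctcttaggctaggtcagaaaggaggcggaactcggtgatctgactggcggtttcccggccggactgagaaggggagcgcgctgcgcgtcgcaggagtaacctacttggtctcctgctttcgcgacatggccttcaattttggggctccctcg
RANBP2 promoter (chr2:108719232-108719531, + strand): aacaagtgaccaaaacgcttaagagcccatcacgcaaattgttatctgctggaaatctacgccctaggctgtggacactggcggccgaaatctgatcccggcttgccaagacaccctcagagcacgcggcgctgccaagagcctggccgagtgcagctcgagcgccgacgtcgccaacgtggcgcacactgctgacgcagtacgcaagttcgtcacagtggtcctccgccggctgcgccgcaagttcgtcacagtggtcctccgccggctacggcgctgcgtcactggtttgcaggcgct
NUP205 promoter (chr7:135557667-135557966, + strand): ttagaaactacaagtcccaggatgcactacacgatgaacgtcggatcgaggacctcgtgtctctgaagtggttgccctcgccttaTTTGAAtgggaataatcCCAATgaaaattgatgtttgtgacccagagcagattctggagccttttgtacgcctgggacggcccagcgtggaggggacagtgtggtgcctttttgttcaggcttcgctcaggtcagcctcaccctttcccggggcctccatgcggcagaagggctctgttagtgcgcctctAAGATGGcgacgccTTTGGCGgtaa
SEC13 promoter (chr3:10321063-10321362, - strand): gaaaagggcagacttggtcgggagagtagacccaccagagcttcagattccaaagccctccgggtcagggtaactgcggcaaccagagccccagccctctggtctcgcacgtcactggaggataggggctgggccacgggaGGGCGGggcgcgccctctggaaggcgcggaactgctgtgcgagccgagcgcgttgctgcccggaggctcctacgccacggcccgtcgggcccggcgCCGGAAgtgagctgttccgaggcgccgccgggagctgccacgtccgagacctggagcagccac

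The NUP54 window held 2 ETS matches, that of NUP205 held a CCAAT, a CHR, a YY1 and an E2F match, and that of SEC13 an ETS match and a GC box. The RANBP2 window held none of these letters. RefSeq windows were found for 38 of the 42 listed genes. ETS letters were present in 15 of them (39.5%), against 17.6% of 27305 gene promoters and 23.2% of the 14230 promoters of measured genes. E2F letters were present in 11 (28.9%), against 8.28% of all promoters and 11.1% of those of measured genes, and were in 7 of the 17 genes that were lower without overlap and 4 of the 19 other measured genes with a window. The GC box was in 20 (52.6%), against 60.0% of the promoters of measured genes, and the CCAAT box in 15 (39.5%), against 36.3%. YY1 core letters were in 5 (13.2%, against 6.51%), NRF1 core letters in 5 (13.2%, against 10.9%) and CHR letters in 9 (23.7%, against 11.9% of the promoters of measured genes). E box letters, which the glucose-responsive factors MondoA and ChREBP can bind in pairs, were in 5 windows (13.2%, against 8.88% of the promoters of measured genes). Split as for E2F into the 17 genes lower without overlap and the 19 others, ETS letters were in 8 and 6 and YY1 core letters in 4 and 1. CHR letters were in 5 and 4, the GC box in 10 and 10 and the CCAAT box in 7 and 8. NRF1 core letters were in 1 and 3 and E box letters in 2 and 3. No motif was compared between these groups by a test. The list is of brightly measured genes, and the shares among promoters of bright genes alone were not counted. A match of letters is a description and does not show that a factor binds there.

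In the outer ring 7 of 8 measured genes were lower in fructose, and the median difference of the group was -0.14. Of the 8 genes, 4 were lower without overlap between the sugars (50%, against 10.0% of all genes and 23.6% of bright genes). NUP160, the large scaffold protein at an arm of the Y complex, had log2 values of 8.01, 8.12 and 7.88 in fructose, against 8.19, 8.33 and 8.22 in glucose. Every fructose array lay below every glucose array, the difference was -0.24 (SE 0.09, limma adjusted p = 0.32), and fructose replicate 3 was the lowest. NUP133, at the stem of the Y, had 7.48, 7.52 and 7.46 in fructose, against 7.62, 7.63 and 7.70 in glucose, a difference of -0.16 (SE 0.06, limma adjusted p = 0.36) with no overlap. NUP107, the binding partner of NUP133, differed by -0.15 and NUP37, which sits on NUP160, by -0.12, also without overlap. NUP43 differed by -0.17, with a fructose array that reached into the glucose range, and NUP85 (-0.04) and SEH1L (-0.06) lay close to 0.

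SEC13 went the other way. It is a subunit of the outer ring and also of the COPII coat, which carries proteins out of the endoplasmic reticulum. Its log2 values were 9.04, 8.92 and 8.99 in fructose, against 8.71, 8.74 and 8.77 in glucose. The difference was 0.24 (SE 0.07, 95% interval 0.09 to 0.40, limma adjusted p = 0.23), and all 3 fructose arrays lay above the glucose arrays.

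The 5 genes of the inner ring, the scaffold that lines the membrane and holds the channel proteins, had a median difference of -0.12. Of these, 3 were lower without overlap (60%, against 10.0% of all genes and 23.6% of bright genes). NUP205 had log2 values of 8.41, 8.44 and 8.34 in fructose, against 8.62, 8.64 and 8.68 in glucose, a difference of -0.25 (SE 0.07, limma adjusted p = 0.22). NUP155, which links the ring to the membrane, had 8.73, 8.77 and 8.68 in fructose, against 8.94, 8.94 and 9.06 in glucose, a difference of -0.26 (SE 0.07, limma adjusted p = 0.23). On each the sugars were apart on all arrays by more than the spread among replicates. NUP35, a small linker of the ring, had 7.39, 7.47 and 7.40 in fructose, against 7.47, 7.66 and 7.49 in glucose, with overlap at the edge and a difference of -0.12 (SE 0.08). NUP93, the hub of the ring, differed by -0.05 (95% interval -0.19 to 0.10). Its arrays only just did not overlap, with a highest fructose value of 8.220 and a lowest glucose value of 8.224. NUP188, a relative of NUP205 with a similar place in the ring, differed by 0.01 (95% interval -0.17 to 0.20).

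NUP54 had the largest difference and the smallest p of the list. With NUP62 and NUP58 it forms the FG complex in the central channel. Its log2 values were 7.83, 7.91 and 7.79 in fructose, against 8.18, 8.21 and 8.21 in glucose, so that the gap between the sugars was wider than the range within either. The difference of -0.36 (SE 0.07, 95% interval -0.52 to -0.20, limma adjusted p = 0.15) corresponds to an intensity in fructose of 0.78 times that in glucose. NUP58 had 8.22, 8.22 and 8.18 in fructose, against 8.26, 8.31 and 8.28 in glucose, a difference of -0.08 (SE 0.06) without overlap. NUP98, an FG nucleoporin whose transcript also encodes the outer ring protein NUP96, differed by 0.04 (95% interval -0.11 to 0.19).

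Of the membrane anchors NDC1 had 9.23, 9.28 and 9.11 in fructose, against 9.37, 9.36 and 9.40 in glucose, a difference of -0.17 (SE 0.07, limma adjusted p = 0.38) with no overlap. NUP210 was the dimmest of the 39 probe sets, brighter than 33.0% of those tested, with log2 values of 3.90, 3.81 and 4.10 in fructose, against 3.99, 4.02 and 3.90 in glucose. Its arrays overlapped and the difference was -0.03 (SE 0.09).

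**Figure D3:**
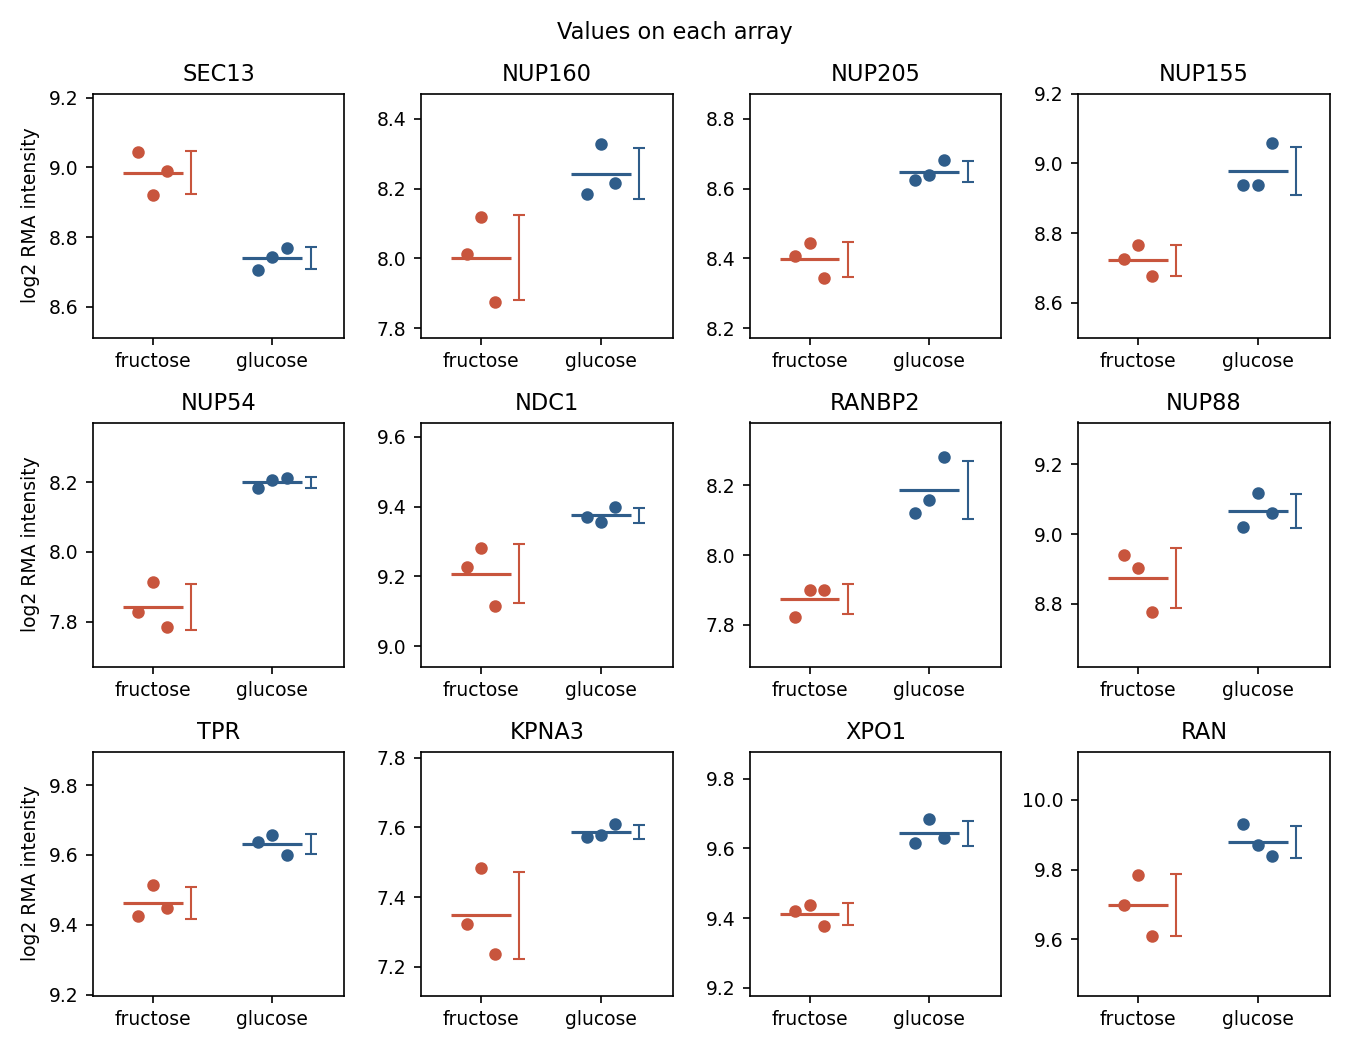
Log2 RMA intensity (y axis, every panel spanning a range of the same width) of 12 genes on the 3 fructose arrays and the 3 glucose arrays (x axis). Dots are arrays, horizontal lines are group means and the bars beside them are 1 SD. The groups do not overlap in any of the 12 panels, and SEC13 is the panel in which fructose is higher. RAN is shown by the brighter of its 2 probe sets, and on the other the sugars overlapped.

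On the cytoplasmic face RANBP2 and NUP88 stood apart. RANBP2, the giant FG protein of the cytoplasmic filaments that also acts as a SUMO ligase, had log2 values of 7.82, 7.90 and 7.90 in fructose, against 8.12, 8.16 and 8.28 in glucose. All fructose arrays were lower, and the difference was -0.31 (SE 0.07, 95% interval -0.48 to -0.14, limma adjusted p = 0.19). RANBP2 belongs to a family of near-identical copies, the RGPD genes; its value here is from the probe set paired with RANBP2 alone, and signal from the copies was not tested. NUP88 had 8.94, 8.90 and 8.78 in fructose, against 9.02, 9.12 and 9.06 in glucose, a difference of -0.19 (SE 0.07, limma adjusted p = 0.34) without overlap. RAE1, an mRNA export factor that binds NUP98, had 9.15, 9.01 and 8.96 in fructose, against 9.06, 9.07 and 9.27 in glucose, with overlap and a difference of -0.10 (SE 0.09). NUP42 (-0.04), AAAS (0.04) and NUP214 (-0.00070), the FG partner of NUP88, differed by less than their standard errors.

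The 3 genes of the nuclear basket, the structure on the nuclear side where mRNA gathers before export, had a median difference of -0.15. TPR, its long coiled-coil protein, had 9.42, 9.51 and 9.45 in fructose, against 9.64, 9.66 and 9.60 in glucose, a difference of -0.17 (SE 0.06, limma adjusted p = 0.34). NUP153, which anchors the basket, had 9.93, 10.06 and 9.96 in fructose, against 10.11, 10.14 and 10.15 in glucose, a difference of -0.15 (SE 0.07, limma adjusted p = 0.41). The sugars did not overlap on either gene, with fructose replicate 2 the nearest to glucose. NUP50, which helps to release import cargo, varied most within glucose (SD 0.28, n = 3) and differed by -0.06.

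Counted by class, 23 of the 27 measured nucleoporins were lower and 14 were lower without overlap (51.9%, against 10.0% of all genes and 23.6% of bright genes), with a median of -0.12. Of the 10 importins and exportins 6 were lower, with a median of -0.04. Without overlap 2 were lower (20%, against 10.0% of all genes and 23.6% of bright genes). The classes were not compared by a test.

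Among the importin alphas, the adaptors that recognise classical nuclear localisation signals, KPNA3 had 7.32, 7.48 and 7.24 in fructose, against 7.57, 7.58 and 7.61 in glucose. Its difference was -0.24 (SE 0.08, limma adjusted p = 0.30), with no overlap and with the fructose arrays more spread than the glucose arrays. KPNA2, the brightest probe set of the list and a gene that is high in dividing cells, had 10.32, 10.46 and 10.23 in fructose, against 10.42, 10.45 and 10.47 in glucose, a difference of -0.11 (SE 0.08) in which fructose replicate 2 lay within the glucose range. KPNA1 and KPNA4 both rounded to a difference of 0.00, with 95% intervals of -0.16 to 0.17 and -0.15 to 0.15.

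The importin beta receptors lay close to 0 and none was without overlap. KPNB1, the carrier that works with the importin alphas, had 9.77, 9.81 and 9.82 in fructose, against 9.89, 9.80 and 9.89 in glucose, a difference of -0.06 (SE 0.07). TNPO1, which imports many RNA-binding proteins, had 9.49, 9.59 and 9.51 in fructose, against 9.48, 9.51 and 9.48 in glucose, a difference of 0.04 (SE 0.07). IPO5, an importer of ribosomal proteins among other cargo, differed by -0.03 and IPO7, which shares such cargo, by 0.02. Over these 4 genes the 95% intervals ran from -0.21 to 0.19.

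XPO1, the main export receptor for proteins with a leucine-rich export signal, had 9.42, 9.44 and 9.38 in fructose, against 9.62, 9.68 and 9.63 in glucose. All fructose arrays were lower, by -0.23 on average (SE 0.06, 95% interval -0.38 to -0.08, limma adjusted p = 0.23). XPO5, which exports microRNA precursors, had 8.62, 8.71 and 8.52 in fructose, against 8.66, 8.65 and 8.70 in glucose, with overlap and a difference of -0.06 (SE 0.07).

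For RAN the value depended on the probe set. The brighter of its 2 probe sets had 9.70, 9.79 and 9.61 in fructose, against 9.93, 9.87 and 9.84 in glucose, a difference of -0.18 (SE 0.07, limma adjusted p = 0.37) without overlap. The other had 9.52, 9.45 and 9.43 in fructose, against 9.45, 9.55 and 9.49 in glucose, with overlap and a difference of -0.03 (SE 0.07, limma adjusted p = 0.89). RAN has processed copies in the genome, and which transcripts each probe set reports was not tested, so its direction is uncertain. RANGAP1, which makes Ran hydrolyse GTP at the cytoplasmic face, had 6.83, 6.96 and 6.91 in fructose, against 6.99, 6.88 and 6.94 in glucose, and differed by -0.04 (SE 0.07).

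**Figure D4:**
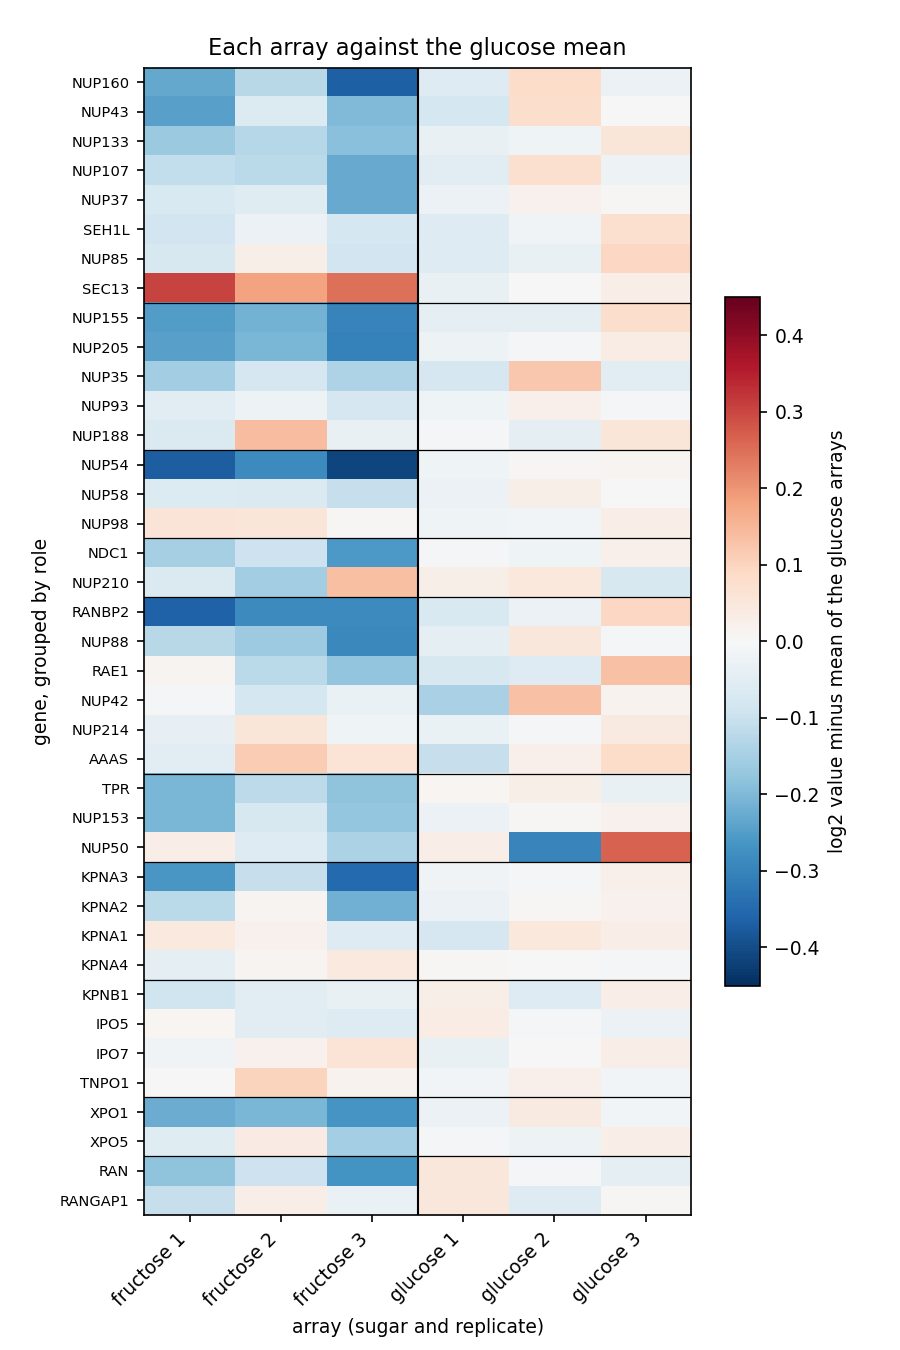
Log2 value on each array minus the mean of the 3 glucose arrays (colour, blue lower and red higher) for the 39 genes (rows, grouped by role) on the fructose and glucose arrays (columns). Most genes are blue in the fructose columns, where replicate 3 is the lowest fructose array for 22 of the 39, and SEC13 is red in all 3.

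The lower values were not spread evenly over the fructose batches. The median of the 39 genes relative to their glucose means was -0.08, -0.06 and -0.14 on fructose replicates 1, 2 and 3, against -0.03, 0.0025 and 0.02 on glucose replicates 1, 2 and 3. Fructose replicate 3 was the lowest fructose array for 22 of the 39 genes and fructose replicate 2 the highest for 25. Of the 17 genes that were lower without overlap, 14 had their lowest value on fructose replicate 3 and 14 their highest fructose value on replicate 2. Over all measured genes the same array medians were 0.03, 0.0053 and 0.02 in fructose, against -0.0057, 0.0082 and -0.0033 in glucose. Over the 3190 genes with a mean log2 of at least 8 they were -0.0018, 0.00062 and -0.044 in fructose, against -0.013, 0.0019 and 0.011 in glucose. Fructose replicate 3 was therefore the lowest array for bright genes too, and how many genes outside the list had these orders of arrays was not counted. The 4091 probe sets read as controls had mean log2 values of 6.18, 6.19 and 6.21 on the fructose arrays, against 6.26, 6.31 and 6.26 on the glucose arrays, with a median difference of -0.06, and the part of this shift in the members' values was not tested. Replicate spread was small: the median SD of a member was 0.06 in fructose and 0.05 in glucose (n = 3 each), and the SD was larger in fructose for 25 of the 39. The median SE of a difference was 0.07, and no member's 95% interval reached a 1.5-fold change in either direction.

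The values of some related or partnered genes are set side by side here. These pairs were chosen after their values were seen, and several join a gene with a large difference to one near 0, so the choice fixes the direction of their ratios, which are described and not tested; the ratio itself depends on the probes, and only its change between sugars is read. The log2 ratio of NUP205 to NUP188 was -0.83, -0.9997 and -0.93 in fructose, against -0.67, -0.62 and -0.68 in glucose. That of NUP54 to NUP58 was -0.39, -0.30 and -0.39 in fructose, against -0.07, -0.10 and -0.07 in glucose. KPNA3 relative to KPNA4, its close paralog, stood at -0.50, -0.39 and -0.67 in fructose, against -0.30, -0.29 and -0.25 in glucose. In these 3 pairs the ratio was lower on every fructose array. The ratio of RANBP2 to NUP214 was likewise lower on every fructose array (-1.09 ± 0.04 in fructose and -0.78 ± 0.05 in glucose; SD, n = 3 each), and so was that of XPO1 to XPO5 (0.80 ± 0.07 in fructose and 0.97 ± 0.06 in glucose; SD, n = 3 each). For TNPO1 and its paralog TNPO2 the ratio overlapped, with 0.17 ± 0.04 in fructose and 0.12 ± 0.09 in glucose (SD, n = 3 each).

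Other genes of the pathway were looked up from lists of further receptors, Ran regulators, mRNA export factors, SUMO enzymes and the nuclear lamina, 66 genes in all, of which 56 were measured. The limma test called 0 of them, the smallest adjusted p was 0.17, and 37 were lower and 19 higher, with a median of -0.05. In this set 15 were lower without overlap (26.8%) and 9 higher (16.1%), shares close to the 23.6% and 16.5% of all genes with a mean log2 of at least 8 and set against 10.0% and 13.0% of all measured genes. At an unadjusted p under 0.05, 5 of the 56 were lower and 4 higher, near the 5.74% and 8.53% of all genes. With the intensity trend and robust variances, which called 1.68% of all probe sets, 3 were called, all lower: IPO8, LBR and TOR1AIP2.

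The 15 further receptors had a median difference of -0.01, with 4 lower (26.7%) and 1 higher (6.67%) without overlap. Of all genes 10.0% were lower and 13.0% higher without overlap, and of bright genes 23.6% and 16.5%. Not all of the 15 receptors were bright by the limit of 8. Among genes above the median probe set the shares were 14.1% lower and 16.6% higher. IPO8, the paralog of IPO7, had 7.63, 7.74 and 7.49 in fructose, against 7.97, 8.002 and 8.04 in glucose, a difference of -0.38 (SE 0.08, limma adjusted p = 0.17) without overlap. The log2 ratio of IPO8 to IPO7 was -2.20 ± 0.15 in fructose and -1.80 ± 0.0043 in glucose (SD, n = 3 each). This pair too was chosen after its values were seen, so the choice fixes the direction of the ratio, which was not tested. IPO4 was higher by 0.18 without overlap, and CSE1L, which returns importin alphas to the cytoplasm, differed by -0.16, also without overlap. XPOT, the tRNA exporter, had overlapping arrays, with 8.90, 8.43 and 8.74 in fructose, against 8.53, 8.38 and 8.39 in glucose. Of the 5 measured Ran regulators and pore genes the 3 with the smallest p were RANBP3 (-0.11), RANBP1 (-0.07) and NUP210L (-0.07).

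Among the 14 measured mRNA export factors 13 were lower, with a median of -0.10. Without overlap 4 were lower (28.6%, against 10.0% of all genes and 23.6% of bright genes). THOC2 and THOC1, subunits of the THO complex that couples transcription to export, differed by -0.21 and -0.16, while the RNA helicase DDX39A was higher by 0.15. The 5 measured SUMO genes had a median of -0.0015, with SUMO3 at 0.10, SENP1 at -0.05 and SAE1 at -0.03. The 17 genes of the lamina and inner nuclear membrane were split, with 6 lower and 6 higher without overlap (35.3% each way, against 10.0% and 13.0% of all genes and 23.6% and 16.5% of bright genes). LBR, the lamin B receptor, had 9.32, 9.36 and 9.26 in fructose, against 9.57, 9.62 and 9.54 in glucose, a difference of -0.27 (SE 0.07, limma adjusted p = 0.21). TOR1AIP2, an activator of torsin, differed by -0.31, and LMNA, which encodes the A-type lamins, by 0.19. None of these lists was compared with the members by a test.

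**Figure D5:**
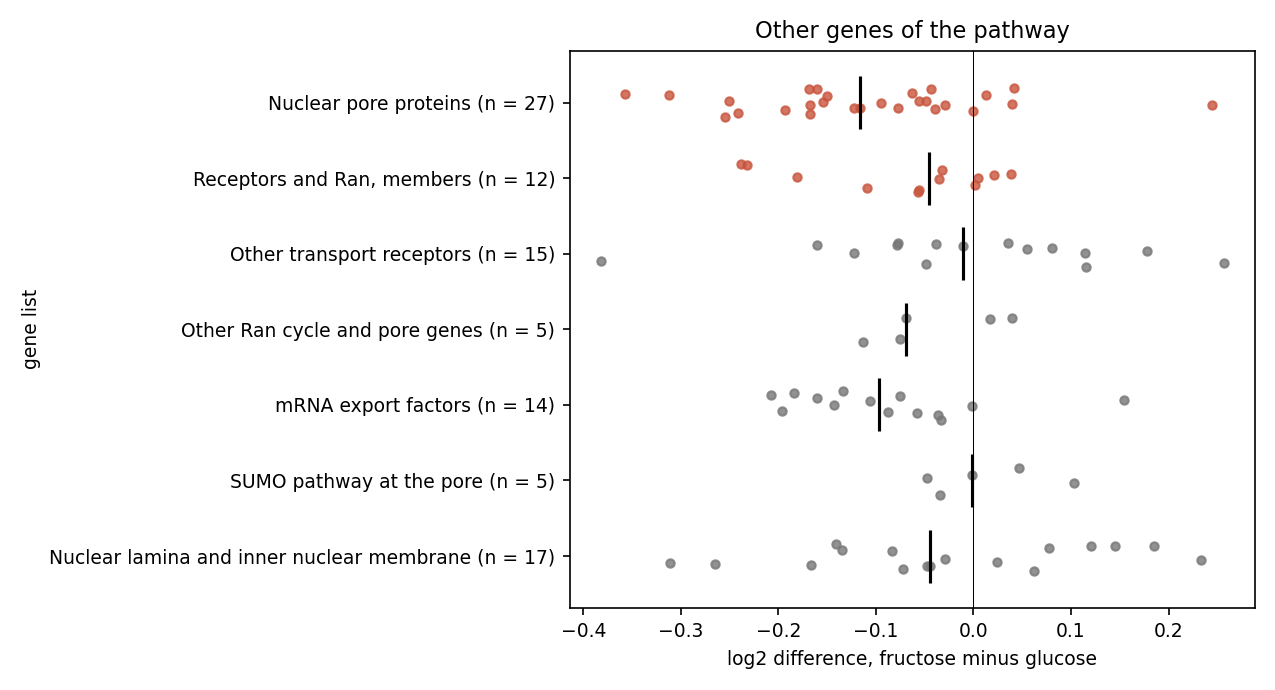
Log2 difference between fructose and glucose (x axis) for each measured gene of the nuclear pore, of the listed receptors with Ran, and of 5 further lists (y axis, number of genes in brackets); dots are genes, moved at random up and down for visibility, and black lines are list medians. The median lies at -0.12 for the 27 nucleoporins and between -0.10 and -0.0015 for the 5 further lists.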

How the data were processed

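The deposited table holds 1 linear RMA intensity per probe set and array; RMA is named in the submitters' processing notes, and its version, program, filters and genome build were not given in the sources used here. Log2 was taken with no pseudocount and the authors' normalization was kept. Of 32321 rows, 4091 with identifiers below the lowest one paired with a gene were read as controls and left out. Of the 28230 tested probe sets 19158 had 1 gene symbol, 1388 several and 7684 none; gene numbers of 19128 matched the RefSeq gene table and 0 symbols changed. Fructose was compared with glucose by limma 3.58.1 in R 4.3.3 (lmFit, eBayes, two-sided, no covariate, Benjamini-Hochberg over all tested probe sets, threshold 0.05), after a test on simulated data. The 3 arrays per sugar limit the precision.

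Values on each array are given for the 3 members with the smallest p in role groups of at least 5 genes, the 2 with the smallest p in smaller groups, and the brightest and dimmest member; up to 3 genes of each further list follow the same order. IPO8, XPOT, LBR and the gene pairs were given array values after these were seen. Members and lists were chosen with earlier results of these data known. Same-numbered arrays did not deviate together (correlations of -0.03, -0.02 and -0.05 over probe sets). Alternatives were a replicate block, leaving out each array, renewed quantile normalization, median centring, array weights, a variance that follows intensity with robust estimation, a fit without dim probe sets, and averaged probe sets; shared probe sets and the dimmer RAN probe set were added after seeing the data.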

Additional observations from a re-analysis of the deposited data

How the results depend on the processing

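The count of members called was 0 in the fit over all probe sets. It was 1 in the fit of probe sets above the median alone and 6 with an intensity trend and robust variances. The counts of called probe sets in these fits were 325 and 473 in place of 1. The count of members called stayed 0 with the replicate block and in all other alternatives. The number of members lower in fructose, 31 in the main fit, was 35 of 39 after median centring and 28 to 33 when 1 array was dropped. It was 31 with the replicate block, which cannot change it in this balanced design. The number without overlap in either direction, 18 in the main fit, was 16 after centring and 19 to 24 when 1 array was dropped. With fewer arrays the sugars separate more easily, and the shares of all genes without overlap in these settings were not counted. The median member difference lay between -0.11 (without glucose replicate 1) and -0.063 (without fructose replicate 3). With probe sets shared by several genes allowed, an alternative chosen after seeing the data, 32 of 42 genes were lower and 20 did not overlap, both directions counted. Signs turned for 10 members, all near 0, and the other 29 kept theirs. After renewed quantile normalization NUP214 stood at 0.016, KPNA1 at -0.0040 and KPNA4 at -0.0080. After median centring NUP188 stood at -0.012, KPNA1 at -0.024, KPNA4 at -0.021 and IPO7 at -0.0047, and with array weights NUP188 at -0.00098 and KPNA4 at -0.0027. With an array left out, AAAS ran from -0.011 to 0.087, KPNA1 from -0.037 to 0.032, KPNA4 from -0.016 to 0.029, NUP188 from -0.049 to 0.052, NUP42 from -0.11 to 0.026, NUP85 from -0.078 to 0.0030, NUP214 from -0.028 to 0.019, NUP50 from -0.21 to 0.077 and NUP210 from -0.11 to 0.034. The cause of these changes was not tested.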
